A study of Mus musculus with 12 samples.

Results

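The 36 genes described here encode proteins of the lysosome: 11 proteases (9 cathepsins, Lgmn and Tpp1), 7 membrane proteins, 7 glycosidases, 6 enzymes of lipid breakdown, the hydrolase partners Grn and Psap, 2 components of the proton pump and the transcription factor Tfeb. They were chosen by symbol from 36121 genes with a deposited value, and all 36 were found. Each averaged 1 TPM or more across the 12 mice, so all 36 were among the 15259 genes tested. TPM is a level per transcript length, so genes can be compared by it. RNA was sequenced from spinal cord of 3-month-old C57BL6 mice in 3 groups of 4, each with 2 males and 2 females by their labels. Control mice were Tardbp-fl/fl and had no Cre. The mice named cHet were Gfap-Cre; Tardbp-fl/+, and the mice named cKO were Gfap-Cre; Tardbp-fl/fl, so both groups with Cre carried the recombinase under the promoter of the astrocyte gene Gfap. Cre and the deleted allele differ together between controls and either Cre group, whereas cHet and cKO differ in the number of floxed alleles. The product of Tardbp is TDP-43, which binds RNA in the nucleus, and the samples are whole tissue, so astrocytes are a fraction of the cells measured.

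Lysosomes are acidic compartments in which proteases, glycosidases and lipases break down material brought in by endocytosis, phagocytosis and autophagy. Most of these enzymes are made as precursors, travel from the Golgi with sorting receptors and mature at the low pH that the vacuolar proton pump maintains. In the central nervous system every cell type has lysosomes, microglia are rich in cathepsins, and inherited loss of many of the enzymes causes storage disease with neurodegeneration. Loss of progranulin, the product of Grn, is a known cause of frontotemporal dementia with TDP-43 pathology.

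Tardbp served as a check of the cKO label only, as it did not separate cHet from control. It stood at 166 to 181 TPM in controls, 158 to 178 TPM in cHet and 140.5 to 151 TPM in cKO. Its log2 change in cKO against control was -0.20 (limma, adjusted p = 0.0113), and against cHet -0.20 (adjusted p = 0.0158). The cHet and control groups overlapped, with a log2 change of -0.00 (adjusted p = 0.984). Cells without Cre remain in the tissue and share the measurement.

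In cKO cord against control, 10 of the 36 genes rose and 1 fell at an adjusted p under 0.05 (limma, Benjamini-Hochberg over all genes tested), beside 9.0% of all genes called (5.75% higher and 3.25% lower). The genes that rose were the cathepsins Ctsb, Ctsd, Ctsl, Ctss and Ctsz, the membrane proteins Cd68 and Mcoln1, the hexosaminidase subunit Hexa, and Grn and Psap. Ppt1, a thioesterase that removes fatty acids from proteins, fell. The rises were small: log2 changes ran from 0.11 for Psap to 0.44 for Ctss. The other 25 did not pass the test. With every library rescaled to the same total, the split became 4 higher and 6 lower, and with mitochondrially encoded genes left out of that total 6 higher and 1 lower. With equal totals most calls over all genes tested were lower too, as given below. The 9.0% is therefore not the background of these rescaled splits. For the total without mitochondrially encoded genes no share of all genes is given here, so that split is not read as a result about the members. No called gene changed sign under either rescaling.

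The start regions of 4 of these genes are shown because they span the results: Ctsd and Ctss with the smallest adjusted p and the largest log2 change among the genes that rose, Mcoln1 as a membrane channel, and Ppt1 as the gene that fell. Each is the 250 bases before the RefSeq transcript start (GRCm38.p6), in the direction of transcription, with every CACGTG in capitals. CACGTG reads the same on both strands and is the core of the element through which Tfeb and related factors are known to act on lysosomal genes. The annotated gene start in GENCODE lies within the window for Ctsd and Mcoln1.
Ctsd, chr7:142387828-142388077, minus strand: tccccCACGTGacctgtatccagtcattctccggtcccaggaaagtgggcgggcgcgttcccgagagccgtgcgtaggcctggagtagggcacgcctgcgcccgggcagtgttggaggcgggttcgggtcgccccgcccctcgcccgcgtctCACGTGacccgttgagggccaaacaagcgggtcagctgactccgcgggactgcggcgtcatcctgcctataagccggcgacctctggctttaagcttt
Ctss, chr3:95526536-95526785, plus strand: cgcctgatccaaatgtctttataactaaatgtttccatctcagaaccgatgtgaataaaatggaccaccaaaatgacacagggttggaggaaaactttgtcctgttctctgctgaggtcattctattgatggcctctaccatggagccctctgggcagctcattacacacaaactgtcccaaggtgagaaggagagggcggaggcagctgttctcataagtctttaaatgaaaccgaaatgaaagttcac
Mcoln1, chr8:3500269-3500518, plus strand: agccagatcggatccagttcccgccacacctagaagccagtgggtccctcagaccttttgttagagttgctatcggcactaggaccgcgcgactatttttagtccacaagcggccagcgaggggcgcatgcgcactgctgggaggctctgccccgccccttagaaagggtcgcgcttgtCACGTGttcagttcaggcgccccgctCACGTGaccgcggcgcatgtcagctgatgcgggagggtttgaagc
Ppt1, chr4:122835977-122836226, plus strand: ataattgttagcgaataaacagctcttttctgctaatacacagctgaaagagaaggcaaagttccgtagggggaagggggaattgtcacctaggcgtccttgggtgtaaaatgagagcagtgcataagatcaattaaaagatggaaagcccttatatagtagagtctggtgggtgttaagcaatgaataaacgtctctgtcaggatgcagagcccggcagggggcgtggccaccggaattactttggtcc

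Ctsd and Mcoln1 each held 2 copies of CACGTG, and Ctss and Ppt1 held 0 in this window. Between the end of each copy and the RefSeq start lay 239 and 92 bases in Ctsd and 65 and 39 bases in Mcoln1. By the GENCODE start, the copy at 92 bases in Ctsd and that at 39 bases in Mcoln1 lie inside the annotated gene. Those copies are also the matches to the longer form TCACGTGA in these genes. Of the 36 genes, 33 had a window in the RefSeq table, and Ctsb, Ctsh and Asah1 had no entry. These 33 genes had 38 windows, and the motif was in 10 of the 38, against 6.02% of all 32851 windows. The windows with the motif belonged to 10 genes (Arsa, Ctsa, Ctsd, Ctsf, Ctsl, Gaa, Glb1, Lamp1, Lgmn and Mcoln1). Counted by gene, CACGTG was in 3 of the 10 genes called in cKO against control that had a window (Ctsd, Ctsl and Mcoln1). It was in 7 of the 23 that were not called. The longer form TCACGTGA, which contains the shorter motif, was in the windows of Ctsa, Ctsd and Mcoln1 and in 0.785% of all windows. A match is a description of letters and no measurement of binding.

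Among the proteases, 5 of 11 rose in cKO against control, beside 9.0% of all genes called. The median log2 change of the 11 was 0.18, beside 0.01 over all genes tested. Ctsd (ENSMUSG00000007891, chr7:142375911-142388038, minus strand), the main aspartic protease of the lysosome, stood at 282, 284, 274 and 272 TPM in the 4 controls, 291, 295, 302 and 293 TPM in cHet and 349, 348, 355 and 349 TPM in cKO. All cKO libraries lay above all others, and all cHet libraries lay above all controls. Its log2 change in cKO was 0.33 ± 0.02 (SE) against control (limma, adjusted p = 1.41e-05), a level 25.9% higher, and 0.25 ± 0.02 against cHet (adjusted p = 0.000139). In cHet against control its log2 change of 0.09 did not pass the test (adjusted p = 0.227). A gene model on the same strand, Gm49369, shares 34.4% of the exon bases of Ctsd, so reads could be divided between them; it averaged 3.37 TPM over the 12 mice, with a log2 change of -0.17 in cKO against control (adjusted p = 0.853).

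Ctss (ENSMUSG00000038642, chr3:95526786-95556403, plus strand), a cysteine protease that in the nervous system is made mainly by microglia and related macrophages, was at 84.2, 92.2, 92.8 and 88.5 TPM in controls, 106, 89.5, 101 and 89.4 TPM in cHet and 119, 123, 124 and 119 TPM in cKO. The 4 cKO libraries lay above the other 8, while cHet and control overlapped. Its log2 change was 0.44 ± 0.05 against control (limma, adjusted p = 0.00047), a level 35.7% higher. Against cHet it was 0.33 ± 0.05 (adjusted p = 0.00362).

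Ctsb (ENSMUSG00000021939, chr14:63122462-63145923, plus strand) is an abundant cysteine protease with both endopeptidase and exopeptidase activity. Its level was 355, 372, 365 and 345 TPM in controls, 364, 360.4, 369 and 356 TPM in cHet and 392, 401, 424 and 409 TPM in cKO. Every cKO library was above every other, and the cHet values lay within the control range. The log2 change was 0.18 ± 0.03 against control (limma, adjusted p = 0.0042) and 0.17 against cHet (adjusted p = 0.00808). It was not called once libraries had equal totals (adjusted p = 0.123 against control and 0.0549 against cHet). Of the exon bases of Ctsb, 12.8% overlap Fdft1 on the opposite strand, which fell in cKO against control (log2 change -0.25, adjusted p = 0.0257), and whether the counting used strand is not given in the sources used here.

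Ctsl (ENSMUSG00000021477, chr13:64359337-64370890, minus strand), a potent endopeptidase, was at 96.7, 85.8, 90.6 and 89.9 TPM in controls, 91.2, 95.4, 94.3 and 96.7 TPM in cHet and 104, 105, 104 and 103.5 TPM in cKO. The cKO libraries were above all others and lay close together, with an SD of 0.753 TPM. Its log2 change was 0.20 ± 0.04 against control (limma, adjusted p = 0.00467) and 0.14 against cHet (adjusted p = 0.0395). The call against control was lost with equal totals (adjusted p = 0.0548). The call against cHet was lost in 11 of 19 alternatives, among them leaving out cHet replicate 1, 2 or 3 or any 1 of the 4 cKO mice, with adjusted p up to 0.106. An antisense gene, Gm47123, overlaps 26.8% of the exon bases of Ctsl.

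Ctsz (ENSMUSG00000016256, chr2:174427493-174439039, minus strand), a carboxypeptidase, stood at 53.7, 48.3, 47.6 and 55.0 TPM in controls, 51.6, 57.3, 54.8 and 50.5 TPM in cHet and 61.6, 65.9, 65.2 and 59.4 TPM in cKO. Its cKO values were above the other 8. The log2 change was 0.30 ± 0.06 against control (limma, adjusted p = 0.00781) and 0.23 ± 0.06 against cHet (adjusted p = 0.039). The call against cHet was lost in 9 of 19 alternatives, among them leaving out cHet replicate 1, 3 or 4 or cKO replicate 1, 2 or 3, with adjusted p up to 0.109.

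Lgmn, the asparaginyl endopeptidase that processes several cathepsins, was measured at 166, 172, 173 and 175 TPM in controls, 167, 179, 178 and 181 TPM in cHet and 177, 183, 188 and 190.2 TPM in cKO. Its cKO libraries lay above the controls and overlapped cHet. The log2 change of 0.11 against control did not pass the test (limma, adjusted p = 0.0789).

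Of the 5 remaining proteases, none passed the test in any comparison by limma; Ctsh and Ctsa had the smallest unadjusted p among them in cKO against control. Ctsh, an aminopeptidase, varied widely within groups: 15.05 ± 2.91 TPM (SD, n = 4) in controls, 19.2 ± 5.93 TPM in cHet and 19.95 ± 3.08 TPM in cKO, with overlapping groups. Its log2 change in cKO was 0.40 ± 0.19 (limma, adjusted p = 0.235). Ctsa, a carboxypeptidase that also protects the enzymes Glb1 and Neu1, was at 99.8 ± 3.66 TPM in controls and 93.9 ± 1.78 TPM in cKO, with all cKO values below all controls (log2 change -0.09, limma, adjusted p = 0.328). Ctsc, Ctsf and Tpp1 had cKO means of 6.77, 53.3 and 60.5 TPM beside control means of 6.02, 54.0 and 60.5 TPM.

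**Figure D1:**
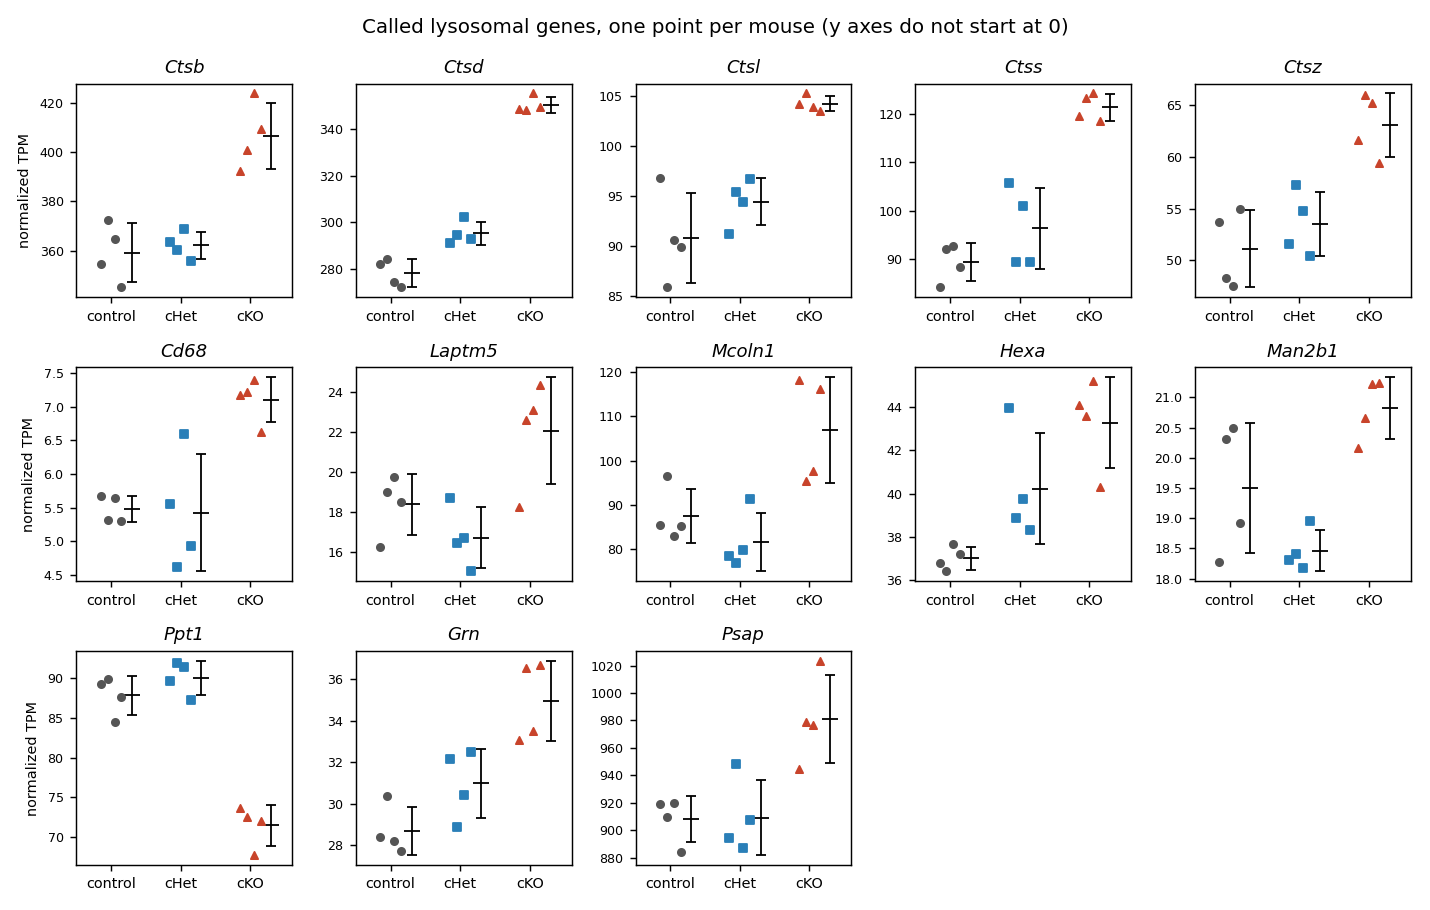
Normalized TPM (y axes, not starting at 0) of the 13 lysosomal genes called in at least 1 comparison, with 1 point per mouse in the control, cHet and cKO groups and bars for the mean ± SD of 4 mice. In cKO, Ctsb, Ctsd, Ctsl, Ctss, Ctsz, Cd68 and Grn lie above the 8 other mice and Ppt1 lies below them.

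Of the 7 membrane proteins, 2 rose in cKO against control and 5 did not pass the test, beside 9.0% of all genes called. The median log2 change of the 7 was 0.01. Cd68 (ENSMUSG00000018774, chr11:69664213-69666153, minus strand), a glycoprotein of phagocyte lysosomes, was at 5.67, 5.32, 5.64 and 5.30 TPM in controls, 5.55, 4.61, 6.59 and 4.94 TPM in cHet and 7.18, 7.22, 7.40 and 6.63 TPM in cKO. Its cKO libraries were above all others, although cKO replicate 4 exceeded cHet replicate 3 by a narrow margin. The log2 change was 0.35 ± 0.09 against control (limma, adjusted p = 0.0371) and 0.37 against cHet (adjusted p = 0.0395). Cd68 had the lowest mean level of the 36 genes, and its call against control was lost on leaving out any 1 of the 8 libraries compared, with adjusted p reaching 0.0927 over all alternatives. Its call against cHet was lost in 10 of 19, among them leaving out cHet replicate 1, 2 or 4 or any 1 of the cKO mice (adjusted p up to 0.104).

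Mcoln1 (ENSMUSG00000004567, chr8:3500457-3515232, plus strand), the calcium-permeable channel mucolipin, stood at 85.4, 96.5, 82.9 and 85.2 TPM in controls, 78.4, 76.9, 79.7 and 91.2 TPM in cHet and 118, 95.5, 97.7 and 116 TPM in cKO. The cKO libraries lay as 2 high and 2 lower values, of which cKO replicate 2 was below control replicate 2, and all 4 were above cHet. Its log2 change was 0.28 ± 0.08 against control (limma, adjusted p = 0.0475) and 0.38 ± 0.08 against cHet (adjusted p = 0.0153). The call against control was lost in 12 of 19 alternatives, with adjusted p up to 0.158, and the call against cHet without cKO replicate 4 (adjusted p = 0.0523).

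Laptm5 (ENSMUSG00000028581, chr4:130913125-130936141, plus strand), a lysosomal transmembrane protein of blood-lineage cells and microglia, was at 16.3, 19.0, 19.8 and 18.5 TPM in controls, 18.7, 16.4, 16.7 and 15.1 TPM in cHet and 18.3, 22.6, 23.1 and 24.4 TPM in cKO. Replicate 1 of cKO lay among the other groups. The gene was higher in cKO than in cHet by 0.39 ± 0.09 on the log2 scale (limma, adjusted p = 0.0348), and its log2 change of 0.25 against control did not pass (adjusted p = 0.122). The call was lost in 9 of 19 alternatives, among them leaving out replicate 2, 3 or 4 of either group (adjusted p up to 0.105).

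The abundant structural proteins of the lysosomal membrane did not pass the test in any comparison. Lamp1, the major membrane glycoprotein, was at 392, 394, 379 and 377 TPM in controls, 392, 407, 409 and 432 TPM in cHet and 377, 387, 378 and 365 TPM in cKO. The cKO values overlapped the controls and were below all cHet values, with a log2 change of -0.12 ± 0.03 against cHet (limma, adjusted p = 0.0513) and -0.03 against control (adjusted p = 0.605). Scarb2, an integral membrane protein that also acts as a sorting receptor, was at 104, 99.4, 101 and 103 TPM in controls, 105, 109, 108 and 104 TPM in cHet and 102, 99.6, 99.4 and 92.7 TPM in cKO. Its cHet libraries were above those of both other groups (log2 change in cKO against cHet -0.11, limma, adjusted p = 0.0761).

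Cd63, a tetraspanin of late endosomes and lysosomes, was at 184, 173, 186 and 198 TPM in controls, 178, 216, 207 and 183 TPM in cHet and 166, 179, 185 and 163 TPM in cKO. The groups overlapped (log2 change in cKO against control -0.10, limma, adjusted p = 0.426). Lamp2, which also serves chaperone-mediated autophagy, had means of 94.1, 100.2 and 94.9 TPM in control, cHet and cKO. Rescaling to equal totals placed Lamp1 and Scarb2 among the genes lower in cKO against both groups, and Lamp2 among those lower against cHet.

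Among the glycosidases 1 of 7 rose in cKO against control, beside 9.0% of all genes called, so 1 call is no result about the role. Hexa (ENSMUSG00000025232, chr9:59539540-59565109, plus strand), the alpha subunit of the hexosaminidase that degrades GM2 ganglioside, was at 36.8, 36.4, 37.7 and 37.2 TPM in controls, 44.0, 38.9, 39.8 and 38.3 TPM in cHet and 44.1, 43.6, 45.2 and 40.3 TPM in cKO. Both Cre groups lay above the controls and overlapped each other. The log2 change was 0.22 ± 0.05 in cKO against control (limma, adjusted p = 0.0137), 0.12 in cHet against control (adjusted p = 0.392) and 0.11 in cKO against cHet (adjusted p = 0.269). The call was lost with equal totals and with equal totals without mitochondrially encoded genes (adjusted p up to 0.141). Tmem202, on the opposite strand, overlaps 12.8% of the exon bases of Hexa and had a mean of 4.90 TPM and a log2 change of 0.16 in cKO against control (adjusted p = 0.561).

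Man2b1 (ENSMUSG00000005142, chr8:85083270-85098282, plus strand), the lysosomal alpha-mannosidase, was at 18.3, 20.3, 20.5 and 18.9 TPM in controls, 18.3, 18.4, 18.2 and 19.0 TPM in cHet and 20.2, 20.7, 21.2 and 21.2 TPM in cKO. The cKO libraries were above cHet and overlapped the controls. It was called against cHet (log2 change 0.17 ± 0.04, limma, adjusted p = 0.0489) and not against control (0.09, adjusted p = 0.234). Of 19 alternatives, 13 lost the call against cHet.

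Gaa, the acid alpha-glucosidase that degrades glycogen, was at 177, 172, 164 and 150.0 TPM in controls, 173, 158, 151 and 161 TPM in cHet and 172, 163, 163 and 179 TPM in cKO. Its groups overlapped in every comparison (log2 change in cKO against control 0.03, limma, adjusted p = 0.807). The other glycosidases Gusb, Glb1, Manba and Neu1 had control means of 16.9, 13.4, 9.48 and 30.6 TPM and cKO means of 16.3, 13.9, 9.14 and 31.8 TPM, with no call.

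Of the 6 enzymes of lipid breakdown, Ppt1 fell and none rose in cKO against control, beside 9.0% of all genes called. The single call is a result about Ppt1 and not about the role. Ppt1 (ENSMUSG00000028657, chr4:122836242-122859175, plus strand), whose loss causes an infantile neuronal ceroid lipofuscinosis, was at 89.3, 89.9, 84.5 and 87.6 TPM in controls, 89.6, 91.9, 91.5 and 87.2 TPM in cHet and 73.6, 72.6, 67.7 and 71.99 TPM in cKO. Every cKO library lay below the other 8, and cHet overlapped control. Its log2 change was -0.30 ± 0.03 against control (limma, adjusted p = 0.000318) and -0.33 ± 0.03 against cHet (adjusted p = 0.000194), and it kept both calls in all 19 alternatives. The neighbouring gene Cap1, which overlaps 129 exon bases of Ppt1 on the opposite strand, had a log2 change of -0.00 in cKO against control (adjusted p = 0.966).

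Other lipid enzymes did not pass. Arsa, which removes sulfate from the myelin lipid sulfatide, was at 21.9 ± 0.935 TPM in controls, 20.4 ± 0.571 TPM in cHet and 20.2 ± 0.864 TPM in cKO, with the cKO values below the controls (log2 change -0.11 ± 0.05, limma, adjusted p = 0.162). Lipa, the acid lipase, was at 16.8 ± 0.401, 18.8 ± 1.67 and 18.1 ± 0.791 TPM, with both Cre groups above the controls (log2 change in cKO 0.10, limma, adjusted p = 0.341). Galc, which degrades galactosylceramide of myelin, had means of 17.5, 17.4 and 17.6 TPM. The 95% interval of its log2 change in cKO against control ran from -0.11 to 0.12. Asah1 and Smpd1, the acid ceramidase and sphingomyelinase, had control means of 51.5 and 53.5 TPM and cKO means of 48.2 and 55.2 TPM.

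Both hydrolase partners rose in cKO against control, beside 9.0% of all genes called. Grn (ENSMUSG00000034708, chr11:102430315-102437048, plus strand), which encodes progranulin, was at 28.4, 30.4, 28.2 and 27.7 TPM in controls, 32.2, 28.9, 30.4 and 32.5 TPM in cHet and 33.1, 36.6, 33.5 and 36.7 TPM in cKO. Its cKO libraries were above the other 8, and cHet overlapped control. The log2 change was 0.28 ± 0.05 against control (limma, adjusted p = 0.00569) and 0.17 against cHet, which did not pass (adjusted p = 0.0852).

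Psap (ENSMUSG00000004207, chr10:60277627-60302597, plus strand), the precursor of the saposins that present lipids to hydrolases, had the highest mean level of the 36 genes. It stood at 919, 909.8, 919.6 and 884 TPM in controls, 894, 948, 887 and 907 TPM in cHet and 945, 979, 977 and 1023 TPM in cKO. The cKO values were above the controls, while cHet replicate 2 exceeded cKO replicate 1. Its log2 change of 0.11 ± 0.03 against control passed by a small margin (limma, adjusted p = 0.0416), was lost in 12 of 19 alternatives and became 0.02 with equal totals (adjusted p = 0.702).

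Neither pump component nor Tfeb was called in any comparison. Atp6ap1, an accessory protein of the proton pump, was at 229, 244, 241 and 238 TPM in controls, 223, 226, 239.6 and 224 TPM in cHet and 224, 225, 225 and 239 TPM in cKO, with overlapping groups (log2 change in cKO against control -0.06, limma, adjusted p = 0.325). Atp6v0d1, a subunit of the membrane sector of the pump, was at 170.3, 163, 169 and 158 TPM in controls, 169, 174, 182 and 171 TPM in cHet and 172, 182, 173 and 180.2 TPM in cKO. Its cKO libraries lay above the controls (log2 change 0.10, limma, adjusted p = 0.093). Tfeb was at 27.0 ± 4.35, 29.7 ± 4.96 and 24.9 ± 2.86 TPM in control, cHet and cKO, with overlapping groups (log2 change in cKO against control -0.11 ± 0.13, limma, adjusted p = 0.676).

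**Figure D2:**
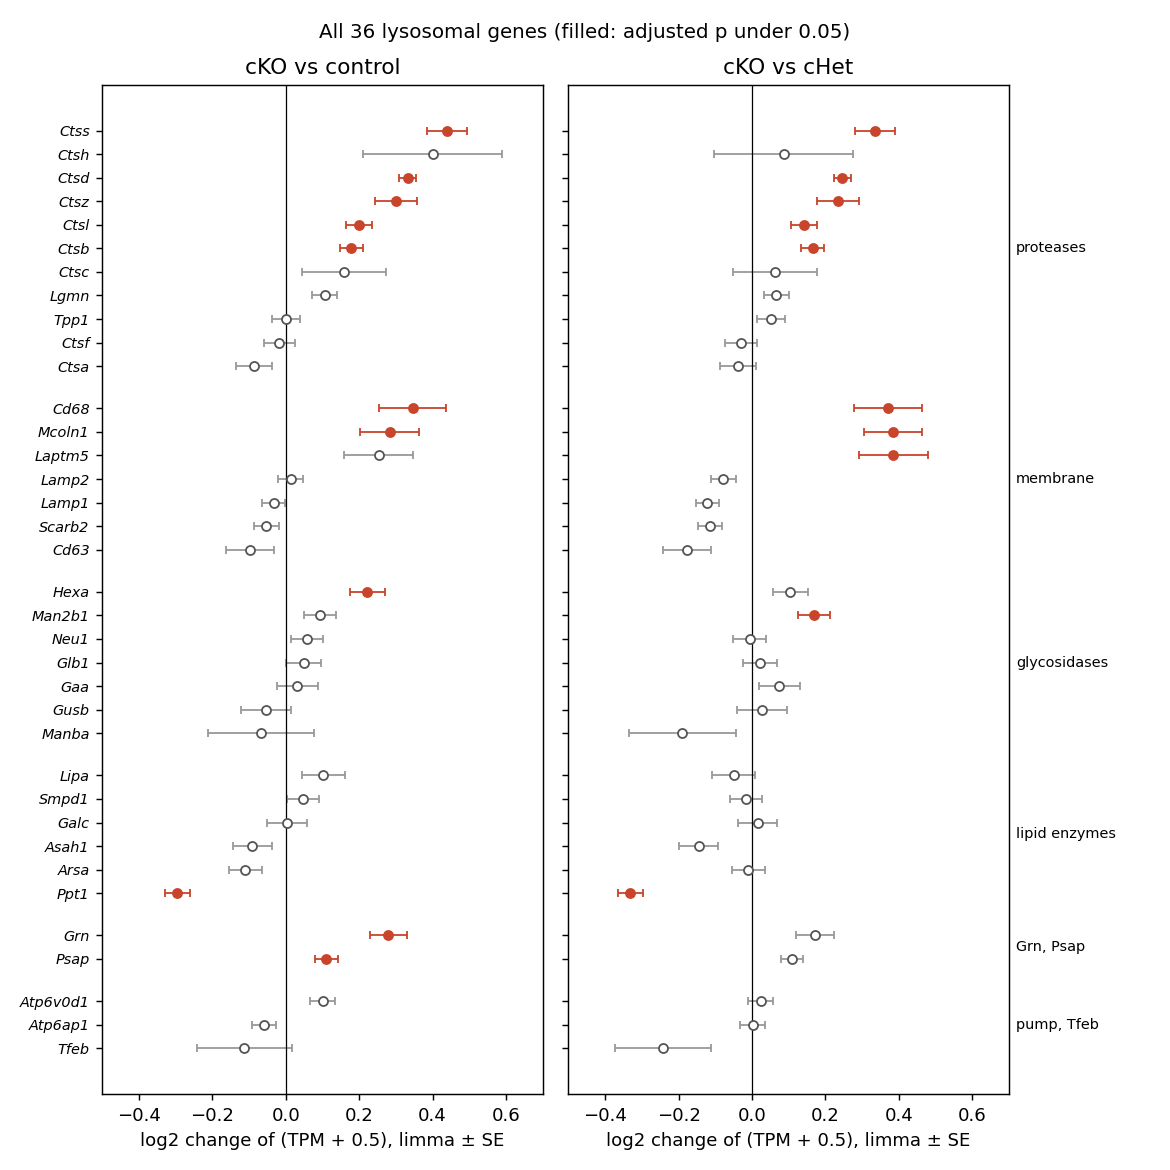
Log2 change of (TPM + 0.5) with its standard error from limma for the 36 lysosomal genes, in cKO against control (left) and against cHet (right), grouped by role; filled points have an adjusted p under 0.05. Cathepsins lie mostly to the right of 0, while Lamp1, Lamp2, Scarb2 and Cd63 lie near or to the left of it on the deposited scale; both panels use the same 4 cKO mice.

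In cKO against cHet, where both groups carry Cre, 9 of the 36 genes were higher and 1 was lower, beside 5.01% of all genes called (2.41% higher and 2.61% lower). The calls were Ctsb, Ctsd, Ctsl, Ctss, Ctsz, Cd68, Laptm5, Mcoln1 and Man2b1 as higher and Ppt1 as lower. This comparison shares the 4 cKO libraries with the one against control, so the values of both comparisons are not independent. The groups did not overlap for 12 genes, 9 above and 3 below (Lamp1, Scarb2 and Ppt1), beside 11.5% of all genes (6.14% above and 5.33% below). The count of genes called by limma fell to 6 without cHet replicate 3, cHet replicate 4 or cKO replicate 1. It fell to 5 without cKO replicate 2, 3 or 4. With equal totals the calls were 4 higher and 4 lower. The shares of all genes given here are from the deposited scale and are no background for that split.

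In cHet against control, limma called 0 of the 36 genes, beside 0.0% of all genes tested. At an unadjusted p under 0.05 there were 7, beside 11.3% of all genes. The median log2 change of the 36 was 0.06, beside 0.01 over all genes. The cHet libraries lay above all controls for Ctsd, Scarb2, Hexa and Lipa and below them for 0 genes, beside 6.23% of all genes with no overlap in either direction (4.12% above and 2.1% below). With equal totals 0 genes lay above and 2 lay below. The shares of all genes given here are from the deposited scale and are no background for those counts. The authors' deposited table for this pair also listed 0 of the 36 at a q-value under 0.05 by either of its tests, beside 0 of its 17910 genes by the likelihood ratio test and 28 by the Wald test.

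The model-free count in cKO against control was 16 genes with no overlap between the groups, 13 above and 3 below (Ctsa, Arsa and Ppt1), beside 17.1% of all genes (10.5% above and 6.59% below). With equal totals it was 5 above and 10 below. The shares of all genes given here are from the deposited scale, and equal totals also moved all genes tested downward in cKO, as given below. For 7 genes (Ctsb, Ctsd, Ctsl, Ctss, Ctsz, Cd68 and Grn) the 4 cKO libraries were above all 8 others, as for 3.89% of all genes, and for Ppt1 they were below all 8, as for 3.01%. All 11 genes called against control had the same sign in males and in females, taken as 2 mice against 2. For all of them but Mcoln1 the groups did not overlap, so the same sign in both sexes was fixed by that. The agreement is therefore no separate support. Ctsd differed by 0.30 on the log2 scale in males and 0.36 in females, Ctss by 0.45 and 0.43, and Ppt1 by -0.31 and -0.28.

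The authors' deposited tables give their own tests for the same pairs. In cKO against control, the authors' deposited table listed 11 of the 36 genes at a q-value under 0.05 by the likelihood ratio test, 10 higher and 1 lower, beside 9.42% of the genes it tested. Of these, 9 were called by limma too; Cd68 and Mcoln1 were not listed at that level, whereas Lgmn (q = 0.0265) and Atp6v0d1 (q = 0.0427) were. By the Wald test the authors' deposited table listed 13, beside 10.2% of its genes. In cKO against cHet the authors' deposited table listed 6 by the likelihood ratio test, beside 3.78% of its genes, and 8 by the Wald test, beside 4.94%, the latter with Lamp1 (q = 0.015) and Scarb2 (q = 0.0474) as lower.

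Summed over the 36 genes, the level was 4063 ± 43.7 TPM (SD, n = 4) in controls, 4149 ± 44.2 TPM in cHet and 4325 ± 48.4 TPM in cKO. As a share of all TPM in a library it was 0.420%, 0.414% and 0.419%, because the deposited totals also differed, from 967165 ± 12164 in controls to 1031666 ± 12645 in cKO. The roles differed: the summed proteases were 1276 ± 16.9 TPM in controls (1256 to 1296), 1313 ± 15.2 in cHet (1296 to 1327) and 1465 ± 26.6 in cKO (1432 to 1497). The summed lipid enzymes were 249 ± 5.27, 256 ± 2.57 and 231 ± 3.48 TPM, and every cKO library was below every other; most of that difference was Ppt1, whose mean was 87.8 TPM in controls and 71.5 TPM in cKO, while Smpd1, Lipa and Galc had means no lower in cKO than in controls. Membrane proteins summed to 878, 916 and 879 TPM and glycosidases to 293, 292 and 304 TPM.

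**Figure D3:**
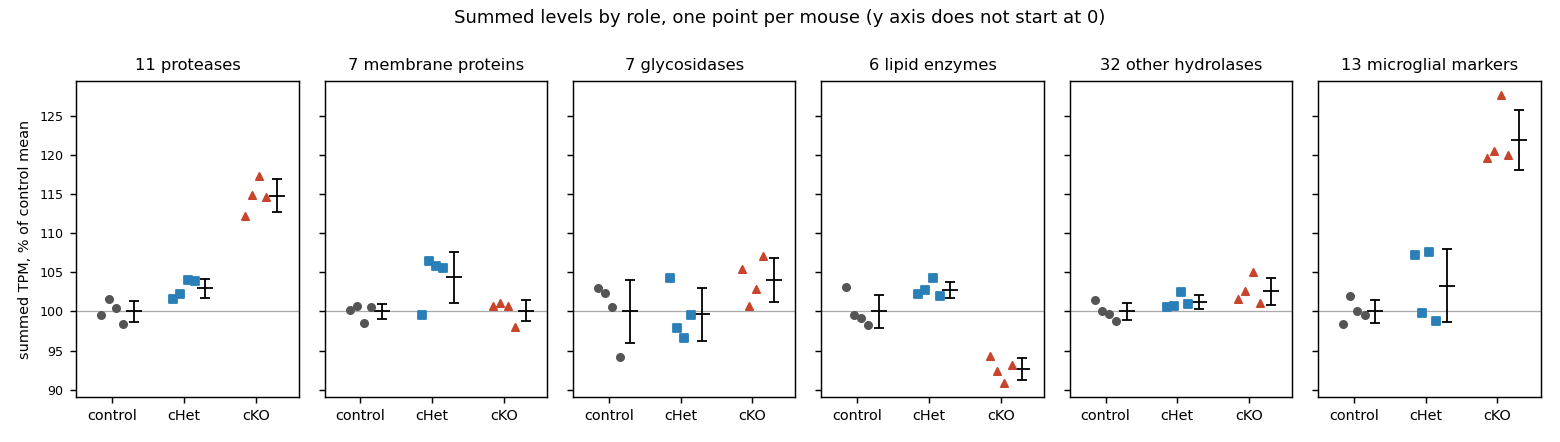
Summed TPM of 4 roles of lysosomal genes, of 32 other lysosomal hydrolases and of 13 microglial markers, as a percentage of the control mean (y axis not starting at 0), with 1 point per mouse and bars for the mean ± SD of 4 mice, on the deposited scale. The proteases and the microglial markers of all 4 cKO mice lie above the other 8 mice, and the lipid enzymes of cKO lie below them. The hydrolases and the microglial markers share a gene.

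Microglial markers were higher in the same libraries as the cathepsins. Of 13 markers, 7 rose in cKO against control, among them Fcrls, Cx3cr1 and Selplg, and none fell, beside 9.0% of all genes called. With equal totals 2 rose. The median log2 change of the 13 markers on the deposited scale was 0.29. These markers include a gene that is also counted among the 32 further hydrolases given below, so the lists are not separate. Their summed level was 253 to 262 TPM in controls, 254 to 276 TPM in cHet and 307 to 328 TPM in cKO. The 8 lysosomal genes known to be abundant in microglia (Ctss, Cd68, Laptm5, Lgmn, Ctsz, Ctsh, Ctsc and Grn) had a median log2 change of 0.29, with 4 called as higher, and summed to 375 to 392 TPM in controls, 399 to 410 TPM in cHet and 438 to 469.9 TPM in cKO. In bulk tissue a change in the number of cells of a type and a change in RNA per cell cannot be told apart, and the part of the microglial markers in these results was not tested. Markers of border macrophages were low, with 5 of 6 under a mean of 1 TPM and a sum of 2.56 to 5.32 TPM in controls; Pf4, the only one above it, was not called. Of 8 markers of blood leukocytes, 6 were under 1 TPM. S100a8 and S100a9 were the other 2 and were not called, and the sum was 2.02 to 10.3 TPM in controls and 5.77 to 10.6 TPM in cKO.

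Other cell types moved as well, and their counts on the deposited scale are to be read beside the 9.0% of all genes called. Of 10 oligodendrocyte markers 6 fell in cKO against control (Aspa, Cnp, Opalin and Mag with the smallest adjusted p), and their sum was 21153 to 22132 TPM in controls and 17570 to 20018 TPM in cKO. Of 10 astrocyte markers 3 rose (Slc1a2, Aldoc and Gfap) and 2 fell (Slc1a3 and Gja1). Of 10 neuronal markers Rbfox3, Syn1 and Slc32a1 rose, and 0 of 8 endothelial and pericyte markers passed, Ly6c1 and Cdh5 having the smallest p. With equal totals the counts became 10 lower for oligodendrocytes, 2 higher and 2 lower for astrocytes and 1 higher for neurons. Markers also differed in cKO against cHet on the deposited scale, where 5.01% of all genes were called. There 9 of 10 oligodendrocyte markers were lower, and 4 of 10 astrocyte markers were higher and 2 lower. Of 10 neuronal markers 2 were higher, of 13 microglial markers 4 were higher, and 0 of 8 endothelial and pericyte markers passed. The part of these cell types in the lysosomal values was not tested.

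For wider lists of lysosomal genes, counts with equal totals have another background, as most calls over all genes were then lower (given below). Counts on the deposited scale are to be read beside the 9.0% of all genes called in cKO against control. Of 32 further hydrolases and hydrolase cofactors, 1 was called higher and 1 lower, 6.25% of the list and below that background, and with equal totals 1 was higher and 5 were lower. Their median log2 change was 0.02, or -0.07 with equal totals, and their summed level was 876 TPM in controls, 887 TPM in cHet and 899 TPM in cKO.

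Of 20 further lysosomal membrane proteins and transporters with a mean of at least 1 TPM, 2 fell and 1 rose in cKO against control, 15% of the list. Npc1, which exports cholesterol from lysosomes, went from 40.5 TPM in controls to 33.6 TPM in cKO (log2 change -0.26, limma, adjusted p = 0.00328). Abca2, a transporter abundant in oligodendrocytes, fell by 0.23 on the log2 scale (adjusted p = 0.0276). Laptm4b rose by 0.11 (adjusted p = 0.0449) and was not called under any of the 3 rescalings. Both Npc1 and Abca2 were also lower in cKO than in cHet, with log2 changes of -0.26 and -0.25 (limma, adjusted p = 0.00433 and 0.0256).

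Of 16 further subunits of the proton pump 4 rose in cKO against control (25% of the list), Atp6v0e (log2 change 0.40, limma, adjusted p = 0.000675), Atp6v1e1, Atp6v0c and Atp6v1f; with equal totals 1 rose. Atp6v0e, of the membrane sector, went from 51.1 to 67.3 TPM. Of 17 genes that deliver enzymes to lysosomes, Gnptab, which makes the phosphomannose tag, fell by 0.19 on the log2 scale (adjusted p = 0.0185) and the other 16 did not pass; this is 5.88% of the list, below the background, and with equal totals 5 were lower. Of 21 measured genes that regulate lysosomes or sense nutrients there, Rheb and Lamtor1 rose (log2 changes 0.14 and 0.12, adjusted p = 0.00411 and 0.032). That is 9.52% of the list, near the background, and with equal totals 0 rose and 1 was lower. Of 23 autophagy genes 4 rose, 17.4% of the list (Map1lc3b, Map1lc3a, Gabarapl1 and Atg12, log2 changes 0.10 to 0.18), whereas with equal totals 0 rose and 5 were lower. Of 3 measured cystatins, which inhibit cysteine cathepsins, Cst3 rose from 1733.6 ± 121 TPM to 2086 ± 138 TPM (log2 change 0.27, limma, adjusted p = 0.023), a call lost with equal totals. In cHet against control none of these lists had a call.

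Scaling between libraries decided part of the calls. With equal totals, all genes tested had a median log2 change of -0.07 in cKO against control in place of 0.01, and the calls over all genes went from 878 higher and 496 lower to 352 higher and 1666 lower. Under equal totals the lysosomal calls were 10, of which 5 were shared with those on the deposited scale: Ctsd, Ctss, Ctsz and Grn as higher and Ppt1 as lower. Lamp1, Scarb2, Asah1, Arsa and Atp6ap1 then entered as lower. Those 5 shared genes kept their call against control in all 19 alternatives, with log2 changes of 0.24 to 0.34 for Ctsd, 0.35 to 0.46 for Ctss, 0.21 to 0.34 for Ctsz, 0.19 to 0.31 for Grn and -0.39 to -0.27 for Ppt1.

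**Figure D4:**
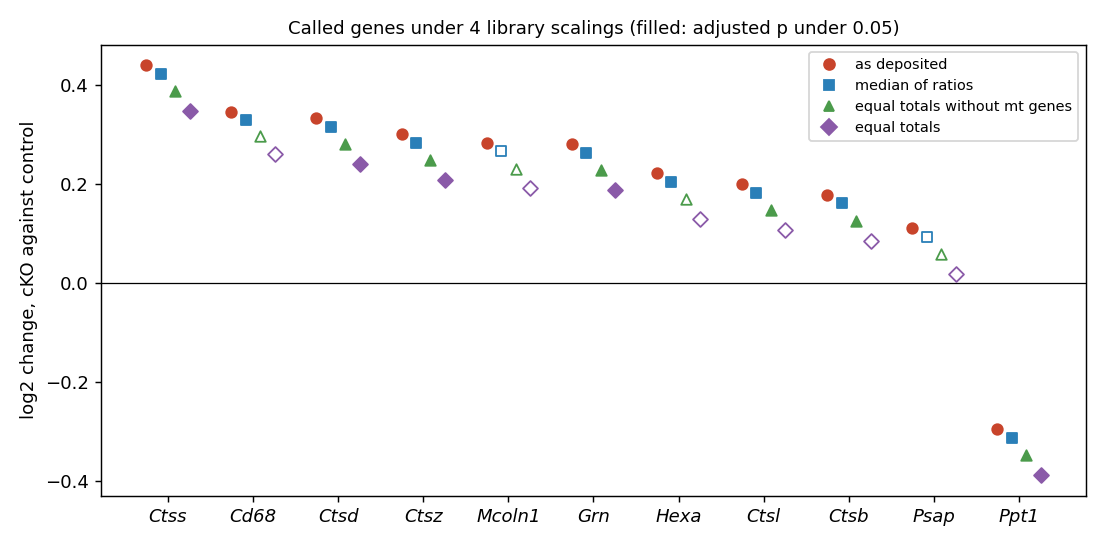
Log2 change in cKO against control of the 11 lysosomal genes called on the deposited scale, under that scale, median-of-ratios rescaling, equal totals without mitochondrially encoded genes and equal totals; filled symbols have an adjusted p under 0.05. Every gene keeps its sign under the 4 scalings, and Ctss, Ctsd, Ctsz, Grn and Ppt1 keep their call.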

How the data were processed

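RNA was sequenced from spinal cord of 12 mice, 4 per group, each a separate mouse by its ID in the labels; no batch, litter or date is given there. The values are the authors' normalized TPM per gene, a deposited signal that is never negative, made with kallisto 0.44.0 and sleuth 0.30.0 on GRCm38, per the submitters' processing notes; whether strand was used in counting is not stated there. The authors' deposited tables hold q-values and p-values of a likelihood ratio and a Wald test, and the Wald effect of the deposited tables was used for its sign alone. TPM keeps no depth, so depth is unknown and no counting interval is given.

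Values were tested as log2(TPM + 0.5) for genes averaging 1 TPM or more, with limma 3.58.1 (R 4.3.3; eBayes with trend, all 12 mice, two-sided, Benjamini-Hochberg over 15259 genes), so fold changes of low genes are understated. Called means an adjusted p under 0.05. The script was tested on simulated data with the means and spreads of the genes tested. In cKO against control it recovered 26% of log2 changes of 0.25, 58% of 0.5 and 92% of 1, with 11 false calls. Genes that did not pass can therefore hold changes of the size called here. Members and gene lists were chosen with earlier results of these data known. Every member is accounted for; values per mouse are given for members called in a comparison or with a mean over 100 TPM, and for the rest the 4 with the smallest p (Arsa, Ctsh, Ctsa, Lipa) are given as values. From each other list up to 4 called genes by adjusted p in cKO against control, or the 2 with the smallest p, are named, except for items that are not reported here; beyond these, astrocyte Gfap and the 5 named genes that overlap a member's exons (GENCODE M21) were named after their values were seen. Alternatives covered the pseudocount (0.1 and 1), the filter, 3 rescalings, the mice in the fit, sex, the trend, duplicate symbols and each mouse left out; the rescaled counts of the other lists were added after seeing the data.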

Additional observations from a re-analysis of the deposited data

Results flagged for a closer look

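In 5 of 78 groups of 4 values examined, 1 mouse stood apart from the other 3 of its group by Dixon's 95% criterion for the gap over the range, where chance gives about 1 in 20. Ctsd was 355 TPM in cKO replicate 3, beside 348 to 349 TPM in the other cKO mice, a gap far smaller than the distance to the other groups. Atp6ap1 was 239.6 TPM in cHet replicate 3, beside 223 to 226 TPM, and 239 TPM in cKO replicate 4, beside 224 to 225 TPM. Ctsa was 108 TPM in cHet replicate 4, beside 91.1 to 93.8 TPM. The summed microglial markers were 328 TPM in cKO replicate 3, beside 307 to 309 TPM. No reason for these values was tested.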

How the results depend on the processing

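Of 21 calls among the lysosomal genes, 8 held in all 19 alternatives: Ctsd, Ctss, Ctsz, Ppt1 and Grn in cKO against control and Ctsd, Ctss and Ppt1 in cKO against cHet. Over the 399 combinations of call and alternative 93 lost the call and 0 changed sign. The count in cKO against control, 11, was 7 without mitochondrially encoded genes in the scaling and 8 to 11 with 1 mouse left out. In cKO against cHet it went from 10 to 5 without a filter on low values and to 5 to 7 with 1 mouse left out. In cHet against control it was 0 throughout. Genes without overlap in cHet against control went from 4 to 2 with equal totals, 1 without mitochondrially encoded genes and 4 to 9 with 1 mouse left out; in cKO against control they were 16 to 19 and in cKO against cHet 12 to 16 with 1 mouse left out. The members' share of TPM became 0.508%, 0.4997% and 0.521% in control, cHet and cKO out of a total without mitochondrially encoded genes, a smaller total by construction. The cause of the other changes was not tested. Calls over all genes in cKO against control fell from 1374 to 907 without control replicate 2, 814 without cKO replicate 2 and 890 without cKO replicate 4; in cHet against control they were 0, 2 without a filter and 1 without control replicate 2. No paired analysis was possible because the labels give mouse IDs and no replicate numbers shared between groups. Depth is unknown, so counting error could not be set apart from the spread between mice.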

Other observations

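Ctsh varied widely within groups, from 12.8 to 19.2 TPM in controls, 14.0 to 27.7 TPM in cHet and 15.9 to 23.2 TPM in cKO; its log2 change in cKO against control, 0.40, was the second in size after Ctss and had a 95% interval of -0.01 to 0.81. By the authors' deposited table and its Wald test, Ctsh had a q-value of 0.0294 in cKO against control.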
